A study of Mus musculus with 12 samples.

Results

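A group of 9 genes of T cell activation and of cytotoxic lymphocytes was followed in oligodendrocytes sorted from mouse brain. They are Icos, Ctla4, Cd28, Cd247, Zap70, Prf1, Themis, Stat4 and Xcl1, found by symbol, and 9 of 9 were among the 2398 genes of the table analysed here. They were chosen by function and selected on their KO and WT counts in these same libraries, which an earlier look had shown. The genotype values below therefore describe them and are no independent support of a difference. Cells that carried the Ndrg1-EGFP reporter, which is used by oligodendrocytes that make myelin, and that were negative for propidium iodide, a stain of dead cells, were collected by flow sorting. KO mice were CnpCre/+;Lmnafl/fl and WT mice were Cnp+/+;Lmnafl/fl. Both carried the Ndrg1-EGFP reporter and floxed alleles of Lmna, the gene of lamins A and C, and both were C57BL/6. KO mice expressed Cre recombinase from a Cnp allele, Cnp being a gene of the oligodendrocyte lineage, so that Cre and Cnp dosage differ along with Lmna. Age is given as postnatal day 60 in one field of the labels and as 8 weeks in another. Each genotype had 3 biological replicates, numbered 1 to 3, and each replicate had 2 libraries. The labels do not say whether a replicate was 1 animal or a pool.

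A T cell recognises antigen through its receptor, whose signal passes through the zeta chain encoded by Cd247 to the kinase ZAP70. Whether the cell then responds depends on costimulation by CD28 and ICOS and on inhibition by CTLA4. Cytotoxic T cells and natural killer (NK) cells kill by releasing perforin, the product of Prf1. In healthy brain such lymphocytes are scarce, and oligodendrocytes are of another lineage, derived from neuroectoderm. The genes that define T cells by their receptor, such as Cd3e, Trac, Cd4 and Cd8a, are not analysed here, and neither are Lmna and Cnp. Whether Lmna had recombined was therefore not examined.

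To show what lies before the start of these genes, the 250 bases upstream of the start used by RefSeq's promoter table are given for 3 of them, from RefSeq on GRCm38.p6, each in the direction of the gene. Ctla4 was read in every KO replicate and in no WT replicate, Zap70 in 1 KO replicate, and Prf1 in both genotypes. Capitals mark AGGAAG, the core of many ETS factor sites, TGTGGT, the core of RUNX sites, and TGACGTCA, the cyclic AMP response element, searched on both strands and shown as the reverse complement where the match lies on the other strand. The window of Ctla4 is chr1:60908775-60909024 on the plus strand, that of Zap70 is chr1:36761548-36761797 on the plus strand, and that of Prf1 is chr10:61297586-61297835 on the plus strand. For Prf1 that start lies 85 bases inside the span of the gene in the RefSeq gene table.
Ctla4: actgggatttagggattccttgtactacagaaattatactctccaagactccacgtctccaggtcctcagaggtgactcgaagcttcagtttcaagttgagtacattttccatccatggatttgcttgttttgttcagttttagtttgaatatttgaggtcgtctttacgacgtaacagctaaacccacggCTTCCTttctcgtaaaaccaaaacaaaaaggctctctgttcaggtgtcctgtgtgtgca
Zap70: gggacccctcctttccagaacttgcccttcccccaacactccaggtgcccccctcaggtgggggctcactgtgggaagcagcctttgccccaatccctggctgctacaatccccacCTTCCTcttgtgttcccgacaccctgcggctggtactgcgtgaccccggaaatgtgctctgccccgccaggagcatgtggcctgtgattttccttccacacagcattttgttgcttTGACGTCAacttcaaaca
Prf1: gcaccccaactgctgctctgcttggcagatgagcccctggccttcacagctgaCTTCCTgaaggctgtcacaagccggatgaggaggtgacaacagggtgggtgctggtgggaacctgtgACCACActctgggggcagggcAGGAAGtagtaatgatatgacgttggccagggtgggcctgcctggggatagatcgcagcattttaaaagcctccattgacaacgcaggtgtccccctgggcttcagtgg
For each of the 7 genes that have a window in the RefSeq table, only the window nearest the gene's start was read. Zap70 has 3 windows there, and Themis and Stat4 have 2 each. The start used for Cd247 lies 8729 bases inside the span of the gene. The letters AGGAAG were present in the windows of 5 of the 7 genes, Cd247 among them, against 29.5% of all 32851 promoter windows of this length. That total takes in every window of genes with more than 1. TGTGGT was present in 2 of 7, against 14.0% of all windows, and TGACGTCA in 1 of 7, that of Zap70, against 1.55%. TGANTCA, the AP-1 letters, and TATAAA were in none of the 7, against 6.75% and 12.4% of all windows. These matches describe the letters and say nothing on binding.

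The table covers genes of chromosomes 1 and 10, with total counts from 3694551 to 6093336 per replicate. Adamts4 and Nfasc, the 2 genes of the mature oligodendrocyte list in the table, summed to between 14778 and 17091 CPM in the KO replicates and to between 10317 and 11898 CPM in the WT replicates. In both genes every KO replicate lay above every WT replicate, as in 4.45% of the 1484 genes tested. Neither passed edgeR's quasi-likelihood test of KO against WT, with adjusted p of 0.504 for Adamts4 and 0.927 for Nfasc. CPM here means counts per 1000000 counts of the table, with library totals scaled by TMM factors. Beside these 2 genes the 9 lymphocyte genes were rare, ranking from 1512 to 1878 by mean CPM among the 2398 genes. They held 264 counts in all KO libraries and 56 in all WT libraries, 320 together.

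By far the most of these counts came from 1 KO replicate. The 9 genes summed to 24, 194 and 46 counts in KO replicates 1, 2 and 3, and to 18, 5 and 33 counts in WT replicates 1, 2 and 3. KO replicate 2 therefore held 60.6% of the counts of these genes, although it held 20.8% of the counts of the table. Scaled for depth, the sums were 6.83, 30.7 and 9.51 CPM in the KO replicates and 3.42, 1.24 and 5.94 CPM in the WT replicates, 15.7 ± 13.1 CPM in KO and 3.53 ± 2.35 CPM in WT (SD, n = 3 each). The KO sums lay above the WT sums, a direction that the choice of the genes can fix, and without KO replicate 2 the KO mean was 8.17 CPM. All 9 genes had a count in KO replicate 2, against 3 in KO replicate 1, 5 in KO replicate 3, and 4, 2 and 3 in WT replicates 1, 2 and 3. In bulk RNA, more cells of a type and more RNA per cell cannot be told apart.

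**Figure D1:**
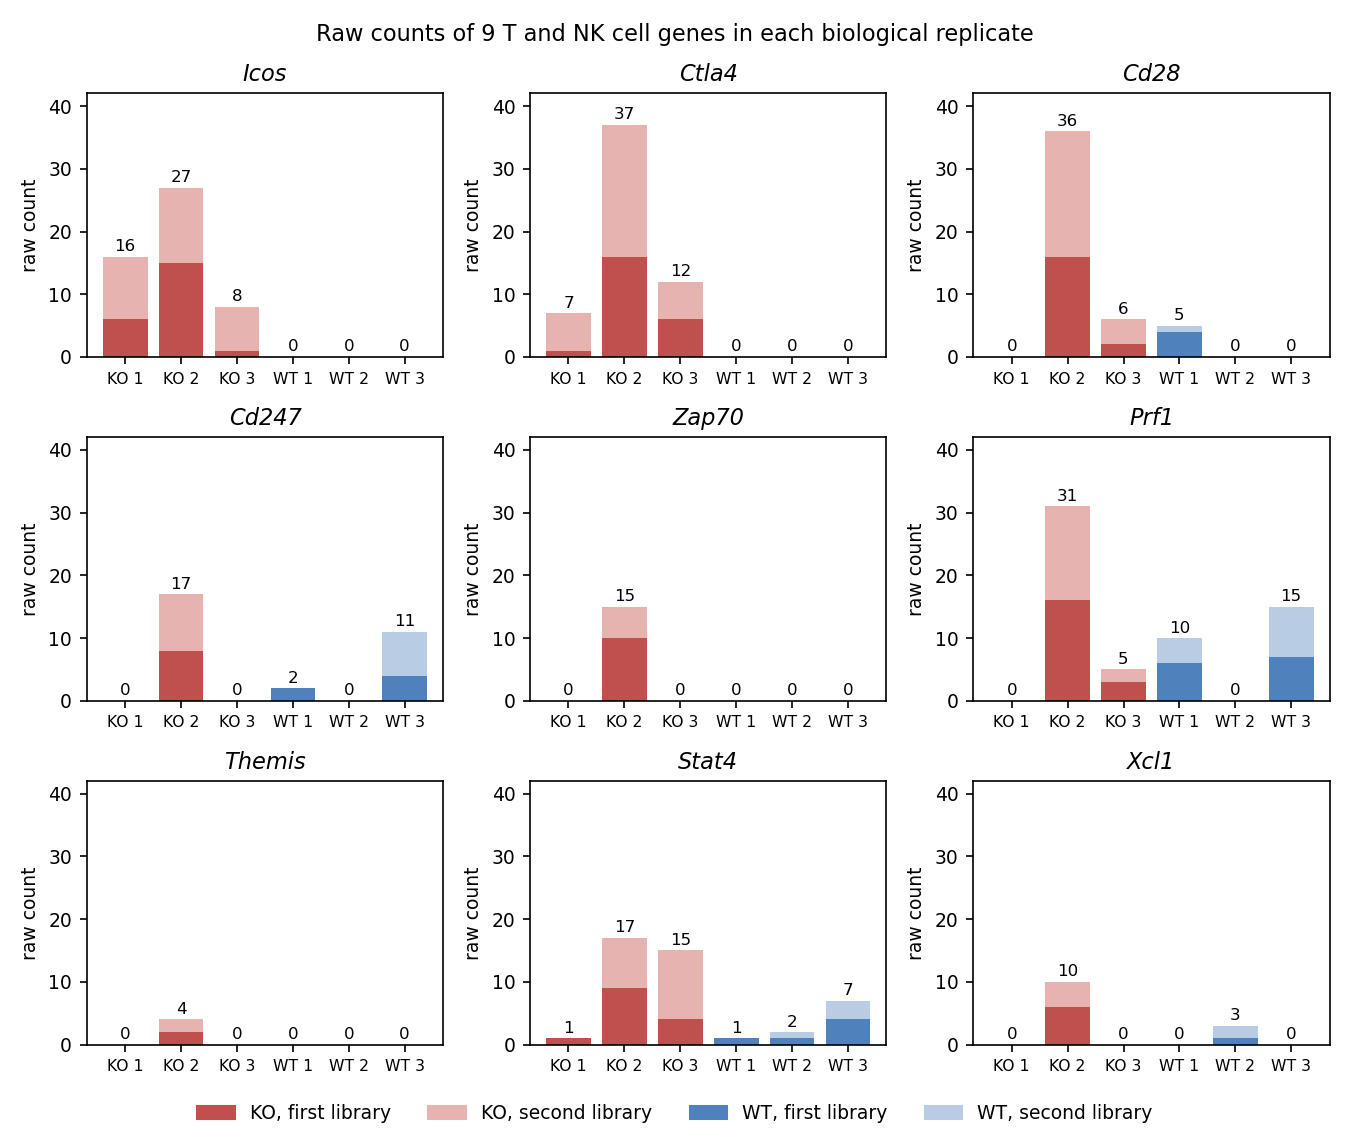
Raw counts (y axis) of each of the 9 genes in the 3 KO and the 3 WT replicates (x axis), with the first library in the darker and the second library in the lighter shade. The number above a bar is the replicate's summed count. Icos and Ctla4 have counts in every KO replicate and 0 in every WT replicate, while Zap70 and Themis have counts in KO replicate 2 alone.

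Of the costimulatory family Cd28, Ctla4 and Icos, Ctla4 and Icos were read in every KO replicate and in no WT replicate. Icos encodes the inducible costimulator, which activated T cells display and which drives help to B cells. It had 16, 27 and 8 counts in the KO replicates and 0, 0 and 0 in the WT replicates. Every KO library held at least 1 Icos count and no WT library did. A group count of 0 allows up to 0.202 CPM in WT (3 counts over the group), against 3.49 ± 1.60 CPM in KO (SD, n = 3). Over the summed groups the depth-scaled KO count of Icos, taken as observed, was 17.0-fold the WT limit, which is called its bound here. Without KO replicate 2 the bound was 13.6-fold.

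Ctla4 encodes the inhibitory receptor that competes with CD28 for its ligands and that regulatory and activated T cells carry. It had 7, 37 and 12 counts in the KO replicates and 0, 0 and 0 in the WT replicates. The genotypes again did not overlap, and all 6 KO libraries but no WT library held a count. The level was 3.44 ± 2.1 CPM in KO, with the same 0.202 CPM limit in WT. The bound was 18.6-fold, and 10.8-fold without KO replicate 2. The limit covers counting error in WT only. The bounds take the KO count as observed, so they cover neither counting error in KO nor the spread between animals.

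Cd28, the receptor that gives the main costimulatory signal of resting T cells, did not separate the genotypes. It had 0, 36 and 6 counts in the KO replicates and 5, 0 and 0 in the WT replicates, so KO replicate 1 lay below WT replicate 1. The ratio of summed counts, KO over WT, was 8.38 (exact 95% interval 3.32 to 27.1, counting error only), and 2.05 without KO replicate 2. With all genes that had a count in the fit, edgeR's quasi-likelihood test gave a log2 fold change of 2.77 ± 1.84 (SE) and an adjusted p of 0.989.

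These 3 genes are neighbours. In mm10 (GRCm38) Cd28 lies on chromosome 1 from 60746388 to 60773359, Ctla4 from 60909025 to 60915832 and Icos from 60960773 to 61000322. Among genes of the table matched to a symbol, no other lies between them. Unmatched genes had no position here and were left out of the search for neighbours. The nearest matched gene on the Cd28 side, Gm11578, had 29, 50 and 49 counts in the KO replicates and 13, 17 and 44 counts in the WT replicates. That is 8.26, 7.91 and 10.1 CPM in KO and 2.47, 4.22 and 7.92 CPM in WT. Gm11578 was thus read in every WT replicate, unlike Icos and Ctla4. Raph1, the next matched gene on that side, stood at 31.4 ± 7.37 CPM in KO and at 30.8 ± 1.87 CPM in WT (SD, n = 3 each). On the Icos side the nearest matched gene, 9530026F06Rik, had 1, 3 and 0 counts in the KO replicates and 1, 0 and 0 counts in the WT replicates. Pard3b, the next matched gene on that side and read in every WT replicate, had 16, 54 and 8 counts in the KO replicates and 33, 1 and 78 counts in the WT replicates.

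Of the genes of receptor signalling, Zap70 and Themis were read in KO replicate 2 alone. Zap70, the kinase that binds the phosphorylated zeta chain, had 0, 15 and 0 counts in the KO replicates and 0, 0 and 0 in the WT replicates. Both libraries of KO replicate 2 carried it, with 10 and 5 counts. The group count of 15 in KO, taken as observed, was 4.99-fold the WT limit, and that value rests on KO replicate 2 alone, since the other KO replicates held 0. Themis, which tunes receptor signalling in developing thymocytes, had 0, 4 and 0 counts in the KO replicates and 0, 0 and 0 in the WT replicates. Its bound was 1.33-fold, without counting error in KO, and lay below 1 when any WT replicate was left out.

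Cd247, the zeta chain, which NK cells also use with their Fc receptor, was read in both genotypes. It had 0, 17 and 0 counts in the KO replicates and 2, 0 and 11 counts in the WT replicates. The ratio of summed counts was 1.30 (exact 95% interval 0.597 to 2.92), with 0 counts in KO once replicate 2 was left out. The value of Cd247 carries a further limit. Of the 50-base windows of its GENCODE M21 transcripts, 55.9% also occur in transcripts of other genes, on either strand. Which genes share them was not recorded. Exons of Pou2f1 on the opposite strand and of Gm16565 on the same strand overlap those of Cd247. Pou2f1 stood at 161 ± 16.6 CPM in KO and 169 ± 35.3 CPM in WT (SD, n = 3 each), far above Cd247. The sources used here do not state a strand setting for the counting, and reads of Cd247 and Pou2f1 may therefore be mixed. In KO replicates 1 and 3 and WT replicate 2, where Cd247 had 0 counts, Pou2f1 had 526, 740 and 662 counts. How reads of the shared stretches were assigned was not tested.

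The cytotoxic and NK cell genes did not follow genotype. Prf1, perforin, had 0, 31 and 5 counts in the KO replicates and 10, 0 and 15 counts in the WT replicates. Its level was 1.98 ± 2.59 CPM in KO and 1.53 ± 1.39 CPM in WT (SD, n = 3 each), with a log2 fold change of 0.38 ± 1.59 (SE) and an edgeR adjusted p of 0.989. Without KO replicate 2 the ratio of summed counts was 0.341, below 1. Xcl1, a chemokine by which NK and CD8 T cells attract cross-presenting dendritic cells, had 0, 10 and 0 counts in the KO replicates and 0, 3 and 0 counts in the WT replicates. In each genotype a single replicate carried it, and the ratio of 3.33 had an exact 95% interval from 0.856 to 18.8. Without KO replicate 2, Xcl1 had 0 counts in KO.

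Stat4, the transcription factor that relays interleukin 12 signals in T and NK cells, was the only one of the 9 genes read in all 6 replicates. It had 1, 17 and 15 counts in the KO replicates and 1, 2 and 7 counts in the WT replicates. KO replicates 2 and 3 lay above every WT replicate, and KO replicate 1 did not. The mean was 2.03 ± 1.52 CPM in KO and 0.649 ± 0.551 CPM in WT (SD, n = 3 each), a log2 fold change of 1.61 ± 1.39 (SE) with an edgeR adjusted p of 0.989. The ratio of summed counts was 3.29 (exact 95% interval 1.58 to 7.49), and 2.73 without KO replicate 2. For Stat4, 21.7% of the 50-base windows are shared with transcripts of other genes, and Gm28177 overlaps it on the same strand. For Xcl1, which Gm20743 overlaps on the opposite strand, the share was 10.8%, and for Themis 1.23%. For Icos, Ctla4, Cd28, Zap70 and Prf1 no window was shared with another gene's transcript.

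The other 6 genes lie apart from one another. On chromosome 1 Zap70 spans 36761798 to 36782821, Stat4 51987106 to 52107189, Xcl1 164931644 to 164935522 and Cd247 165779952 to 165871153. On chromosome 10 Themis spans 28668360 to 28883820 and Prf1 61297751 to 61304684.

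Per length of transcript, the order of the genes in KO put Ctla4 first, at 1.48 ± 0.903 CPM per kb, followed by Icos at 1.02 ± 0.466, Xcl1 at 1.01 ± 1.75 and Prf1 at 0.766 ± 1.00 (SD, n = 3). Stat4 stood at 0.523 ± 0.393 CPM per kb, Cd28 at 0.378 ± 0.489, Zap70 at 0.264 ± 0.458, Cd247 at 0.168 ± 0.291 and Themis at 0.0181 ± 0.0313. In WT the highest were Prf1 at 0.593 ± 0.537 CPM per kb and Xcl1 at 0.475 ± 0.822, followed by Stat4 at 0.168 ± 0.142, Cd247 at 0.148 ± 0.197 and Cd28 at 0.0517 ± 0.0896, with the other 4 genes at 0. Neighbours in these orders did not differ beyond their spread.

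The 9 genes were compared between the libraries of each replicate. Of the 54 combinations of gene and replicate, 28 had 0 counts in both libraries, 23 had counts in both, and 3 had counts in only 1 library, where the count was at most 2. Exact binomial tests of the split between libraries, two-sided, gave no p under 0.05 in the 26 combinations with a count, with a smallest exact p of 0.0691 for Ctla4 in KO replicate 1 (1 and 6 counts) and a smallest adjusted p of 0.918. In 20 of the 26 the count was high enough for a p under 0.05 to be possible. Icos in KO replicate 3 had 1 and 7 counts, and Stat4 there had 4 and 11. Summed over the 9 genes, KO replicate 2 had 98 and 96 counts, KO replicate 1 had 8 and 16, KO replicate 3 had 16 and 30, and WT replicates 1, 2 and 3 had 13 and 5, 2 and 3, and 15 and 18. The smallest exact p of these 6 sums was 0.0556 and the smallest adjusted p 0.188, so the sums of KO replicate 3 and WT replicate 1 leaned to 1 library without passing the test.

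**Figure D2:**
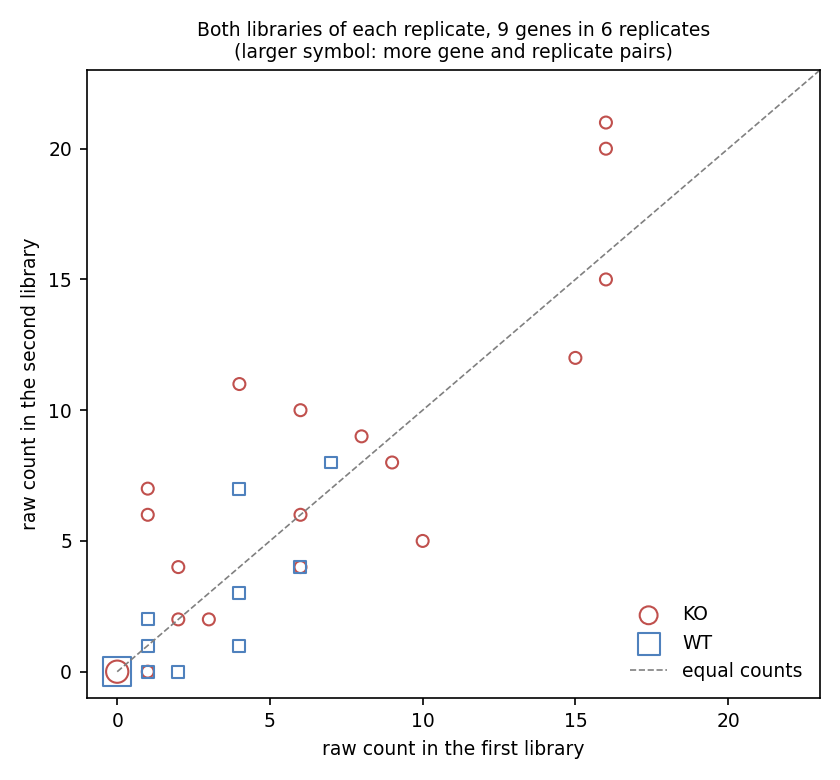
Raw count in the first library (x axis) against the second library (y axis) of the same replicate, for 9 genes in 6 replicates, KO as circles and WT as squares, with symbol size growing with the number of combinations at a point. The dashed line marks equal counts, and 28 of 54 combinations lie at 0 in both libraries.

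A chi-square test of library against library, over genes with 20 or more counts in both together, gave between 1.00 and 1.06 per degree of freedom and p from 0.0594 to 0.486 in the 6 replicates. The same ratio was 38.1 to 140.5 between replicates of the same genotype. No replicate gave a p under 0.05 in this test, which cannot show that a small excess over sampling noise was absent. The 2 libraries of each replicate, far closer than different replicates, were summed and counted as 1 sample. A zero repeated in 2 libraries is accordingly a single observation of that replicate.

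For the comparison of KO with WT, edgeR's quasi-likelihood test was adjusted over all genes tested by the Benjamini-Hochberg method. No member passed the filter on low counts, which asked for 1.98 counts per 1000000 of the unscaled total in at least 3 replicates. Icos, Ctla4, Cd247, Prf1 and Stat4 reached that level, without TMM factors, in 2 replicates, Cd28 and Zap70 in 1, Themis and Xcl1 in 0. None of the 9 was therefore in the test of 1484 genes, of which 0 passed an adjusted p of 0.05 and 3.98% had an unadjusted p under 0.05. In a fit of all 1981 genes with a count, 0 of 9 passed an adjusted p of 0.05, as did 0% of all genes in either direction, and 2 of 9, Icos and Ctla4, had an unadjusted p under 0.05, against 4.09% of all genes. The adjusted p was 0.940 for Icos and for Ctla4 and between 0.989 and 0.991 for the others. DESeq2 on the same genes also called 0 of 9, where it called 0.303% of all genes higher and 0.0505% lower, and its adjusted p was 0.142 for Icos and 0.147 for Ctla4. These 2 again had an unadjusted DESeq2 p under 0.05, against 3.84% of all genes. The fitted difference was above 0 for 9 of 9 genes, against 50.6% of all genes, which the choice of the genes can set. With 3 replicates a side, 0.1 is the smallest two-sided p that exact permutation allows for 1 gene.

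Read against the other genes of the table, some of these patterns are common and some are not. Every KO replicate lay above every WT replicate in 2 of the 9 genes, Icos and Ctla4, as in 4.09% of all genes with a count and in 4.37% of the 389 genes whose total count lies in the range of the 9 genes, from 4 to 61. Every KO replicate lay below every WT replicate in 0 of 9, against 3.48% and 2.06%. A count in every KO replicate with 0 in every WT library was found in 2 of 9 members and in 5 genes in all, 0.252% of the genes with a count and 1.29% of the 389. These 5 are Icos, Ctla4, Ly9, 4930590L20Rik and a gene with identifier 100862189, of which Ly9 had 5, 33 and 8 counts in the KO replicates. The reverse, a count in every WT replicate with 0 in every KO library, occurred in 0.0505% of the genes with a count and in 0 of the 389. Counts in at least 1 KO replicate with 0 in WT were found in 4 of 9 members and in 4.29% of all genes and 9.77% of the 389, and the reverse in 0 of 9 and 6.43% of the 389. Since the 9 genes were chosen with these counts known, nothing is read from the difference.

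KO replicate 2 was the highest of the 6 replicates by CPM for 7 of the 9 genes, against 24.4% of the 389 genes and 18.0% of all genes with a count. The exceptions were Stat4, with KO replicate 3 highest, and Icos, with 4.56 CPM in KO replicate 1 and 4.27 CPM in KO replicate 2. The share of a gene's counts that came from KO replicate 2 was 39.5% for Stat4, 50.8% for Prf1, 52.9% for Icos, 56.7% for Cd247, 66.1% for Ctla4, 76.6% for Cd28 and 76.9% for Xcl1, and took in every count of Zap70 and Themis. For 4 of 9, Cd28, Zap70, Themis and Xcl1, KO replicate 2 held at least 3 of every 4 counts, against 3.23% of all genes and 8.74% of the 389. The median share was 66.1% over the 9 genes and 21.4% over the 389 genes.

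**Figure D3:**
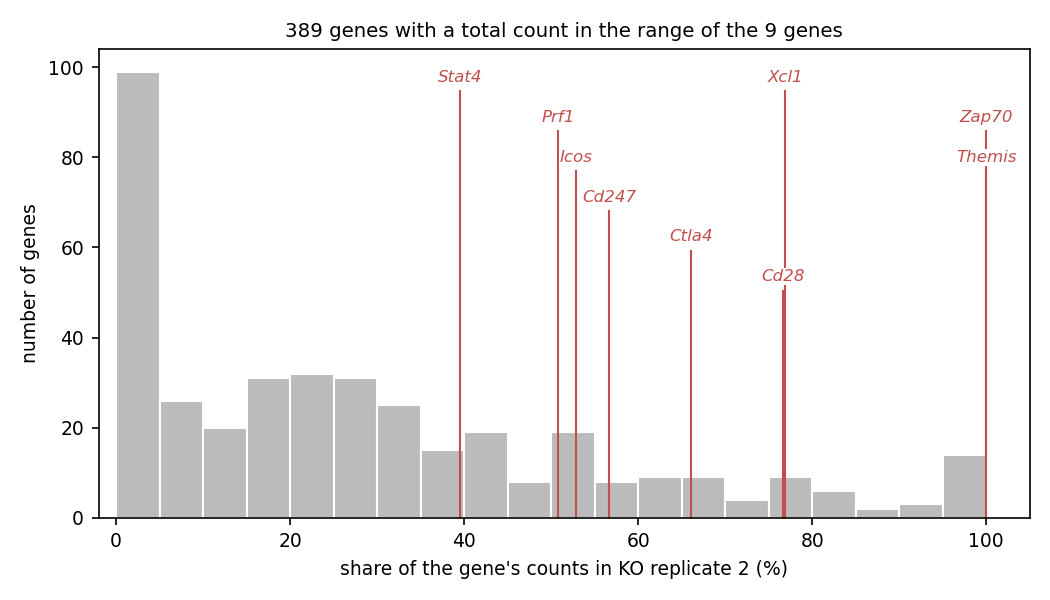
Distribution over 389 genes (y axis, number of genes) of the share of each gene's counts that came from KO replicate 2 (x axis, percent), for genes with a total count between 4 and 61. Red lines mark the 9 genes, which lie from 39.5% upwards, above the median of 21.4%.

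Outside KO replicate 2 the genes differed in where they were read. Icos and Ctla4 made up 43 of the 70 counts of KO replicates 1 and 3. The other 7 genes had 1, 130 and 26 counts in the KO replicates and 18, 5 and 33 counts in the WT replicates. As CPM that was 0.285, 20.6 and 5.38 in the KO replicates and 3.42, 1.24 and 5.94 in the WT replicates. KO replicate 1 lay below every WT replicate, so the genotypes overlapped with or without KO replicate 2. The split of Icos and Ctla4 from the other 7 genes was made after the values were seen.

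Other genes of T and NK cells, taken from lists of receptor signalling, costimulation, cytotoxicity, transcription and cytokine signalling, trafficking and the SLAM family, were in the table as 44 genes besides the 9, and 27 of them passed the filter. None passed the edgeR test, 5 had an unadjusted p under 0.05, and the median log2 fold change was 0.78 with 22 of 27 above 0, against a median of -0.01 and 49.5% above 0 over all 1484 genes. DESeq2 called 2 of the 27, among them Cd244a, both higher in KO, against 0.404% of genes called higher and 0.0674% called lower over the 1484. Every KO replicate lay above every WT replicate in 5 of 27, among them Fyn, Hivep2, Cd244a and Srgn, and below in 0, against 4.45% and 4.04% of the 1484 genes. The 5 became 10 without KO replicate 3, against 8.42% of the 1484 genes, and 8 without WT replicate 1, against 11.0%. KO replicate 2 was highest in 20 of the 27, against 15.4% of the 1484 genes. Without KO replicate 2 the median log2 fold change of the 27 genes was 0.15 with 17 above 0, and edgeR called 0. All gene lists used here, like the 9 genes, were written with earlier results of these data known. Their shares therefore describe them and are no independent support of a difference.

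Among genes of the receptor complex and its signalling, Ptprc, which encodes CD45, stood at 65.5, 106 and 14.9 CPM in the KO replicates and at 24.1, 9.93 and 16.9 CPM in the WT replicates. KO replicate 3 was among the WT values. Ptpn7, a phosphatase of lymphocytes, averaged 4.94 ± 3.78 CPM in KO and 1.91 ± 0.609 CPM in WT. Fyn, a kinase that oligodendrocytes also use, averaged 1489 ± 33.3 CPM in KO and 1323 ± 65.2 CPM in WT (SD, n = 3 each). Its KO replicates all lay above its WT replicates. In costimulation, the inhibitory receptor gene Vsir averaged 48.2 ± 16.1 CPM in KO and 38.2 ± 7.96 CPM in WT. Icosl, the ligand of ICOS, averaged 5.93 ± 1.72 CPM in KO and 2.90 ± 2.48 CPM in WT. The edgeR adjusted p was 0.927 for Ptprc and 0.994 for the other 4 genes.

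In the cytotoxic and NK list, Fcer1g, the signalling chain of Fc receptors, averaged 78.7 ± 52.8 CPM in KO and 44.8 ± 15.2 CPM in WT. Srgn, the proteoglycan of secretory granules, averaged 69.1 ± 61.6 CPM in KO and 17.9 ± 8.25 CPM in WT. Fcgr3, an Fc receptor, averaged 56.1 ± 31.7 CPM in KO and 40.7 ± 10.8 CPM in WT (SD, n = 3 each). Their edgeR adjusted p lay between 0.927 and 0.994. Myeloid cells also express these 3 genes. Among trafficking genes, Itgb2, the shared chain of leukocyte integrins, averaged 71.6 ± 61.4 CPM in KO and 24.4 ± 8.37 CPM in WT. Rgs1 averaged 12.4 ± 5.72 CPM in KO and 9.75 ± 5.36 CPM in WT.

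The named transcription and cytokine genes, which many cell types use, had KO means slightly below their WT means and within the spread. Ifngr1, a chain of the interferon gamma receptor, averaged 458 ± 77.8 CPM in KO and 469 ± 107 CPM in WT (SD, n = 3 each). Ikzf2 stood at 126, 80.7 and 85.8 CPM in the KO replicates and at 110.0, 120.4 and 99.9 CPM in the WT replicates. Over the 7 tested genes of that list the median log2 fold change was -0.04. In the SLAM family, Cd244a, a receptor of NK and CD8 T cells, stood at 4.84, 28.3 and 4.14 CPM in the KO replicates and at 0.380, 0 and 0 CPM in the WT replicates, with an edgeR adjusted p of 0.504. Its KO replicates lay above its WT replicates, and KO replicate 2 far above the others. Cd48, its ligand, averaged 13.7 ± 10.3 CPM in KO and 9.68 ± 5.93 CPM in WT. Cd84 averaged 11.8 ± 10.2 CPM in KO and 6.60 ± 4.43 CPM in WT.

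Of these 44 genes, 13 were as rare as the members, with at least 1 and at most 61 counts in all. KO replicate 2 was highest for 7 of the 13, against 24.4% of the 389 genes with 4 to 61 counts and 18.0% of all genes with a count. Il18rap and Il18r1, the chains of the interleukin 18 receptor, had 0, 32 and 0 and 0, 21 and 1 counts in the KO replicates, and 0 in every WT replicate. Il17a had its 6 counts in KO replicate 2, and Slamf6 had 4, 15 and 0 counts in the KO replicates, both with 0 in WT. Others had more counts in WT. Prdm1, a transcription factor of plasma cells and effector T cells, had 1, 6 and 0 counts in the KO replicates and 20, 0 and 6 in the WT replicates. S1pr4 had 1, 7 and 3 counts in KO and 5, 8 and 9 in WT, and Slamf1 had 0, 7 and 0 counts in KO and 0, 0 and 16 in WT. Pdcd1, the gene of the inhibitory receptor PD-1, had 2, 7 and 0 counts in KO and 0, 1 and 0 in WT. These genes were picked after their counts were seen. The 13 genes summed to 5.69, 23.3 and 4.55 CPM in the KO replicates and to 6.08, 2.73 and 9.72 CPM in the WT replicates. For these sums too the genotypes overlapped with or without KO replicate 2.

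Genes on the lists of myeloid cells, some of them shared with the T and NK cell lists, were highest in KO replicate 2. The microglia and macrophage list had 3 of 32 genes in the table, Ptprc, Fcer1g and Fcgr4, which summed to 135, 251 and 49.8 CPM in the KO replicates and to 90.4, 46.9 and 58.5 CPM in the WT replicates. KO replicate 2 was highest for 3 of 3, against 18.0% of all genes with a count. Ptprc and Fcer1g, at 106 and 136 CPM in KO replicate 2, were already counted in the T and NK cell lists above. The microglia and macrophage list is therefore not a separate set of genes. The neutrophil and granulocyte list had 5 of 21 genes, led by Il1r2, Cxcr2 and Prtn3, and summed to 12.5, 62.2 and 14.5 CPM in the KO replicates and to 16.7, 10.4 and 13.9 CPM in the WT replicates, with KO replicate 2 highest for 5 of 5. The B cell and plasma cell list, 6 of 27 genes led by Btg1, Cd55 and Fcgr2b, all of which other cells use as well, summed to 271, 416 and 295 CPM in KO and to 360.0, 223 and 416 CPM in WT. There KO replicate 2 was highest for 4 of 6 genes. The part of these cells in the counts of the 9 genes was not tested.

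**Figure D4:**
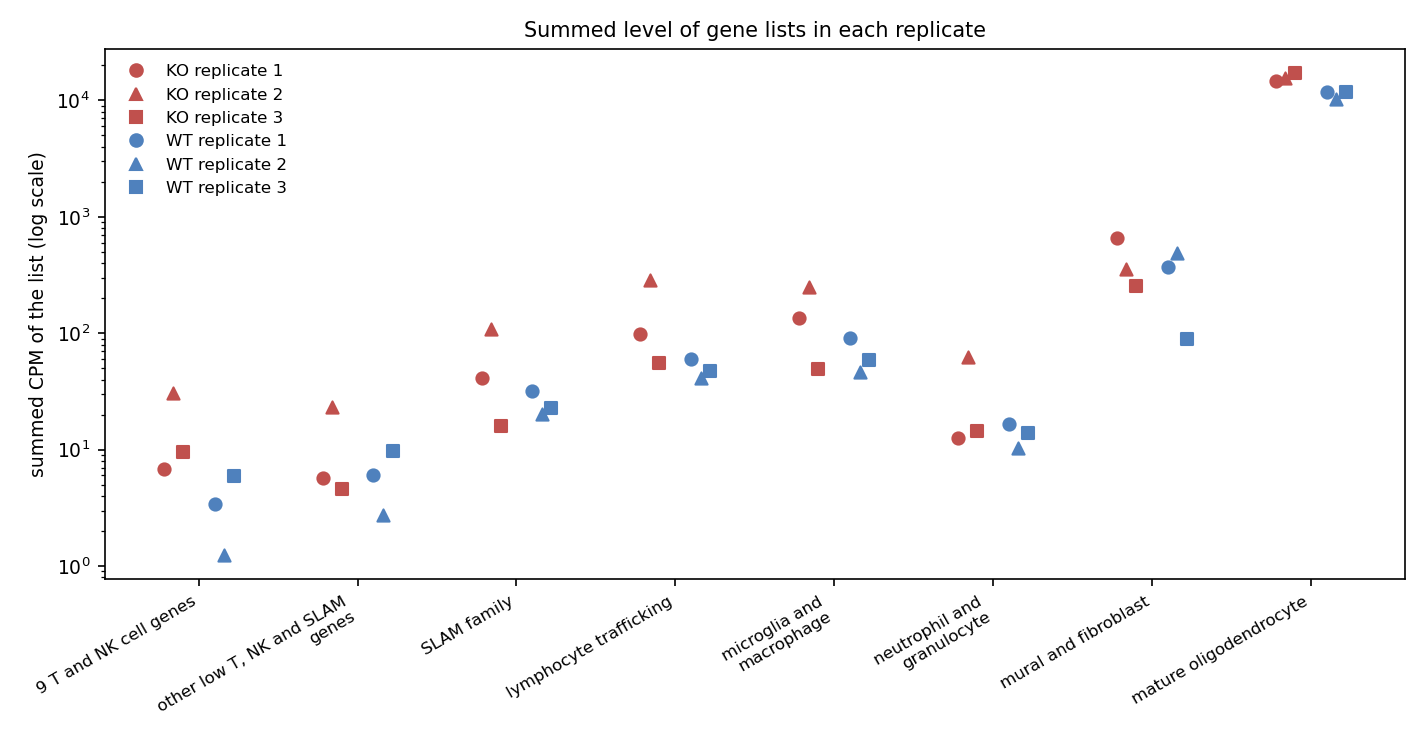
Summed CPM (y axis, log scale) of the 9 genes and of gene lists without them, for the 3 KO replicates (red, left) and the 3 WT replicates (blue, right) of each list, with a symbol for each replicate number. KO replicate 2 is the highest point of the first 6 lists, at 30.7 CPM for the 9 genes, and not of the last 2. Lists share some genes, and not every list is drawn. Of those not drawn, the T and NK transcription and cytokine list was highest in KO replicate 1, at 1150 CPM against 1054 CPM in KO replicate 2. The astrocyte and oligodendrocyte progenitor lists, also not drawn, were highest in KO replicate 2, at 9740 and 1756 CPM.

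Lists of non-leukocytes differed in which replicate was highest. The mural cell and fibroblast list, 7 of 20 genes led by Fn1, Dcn and Col3a1, summed to 657, 359 and 255 CPM in KO and to 368, 486 and 88.6 CPM in WT. The astrocyte list, 5 of 17 genes led by S100b, Kcnj10 and Gja1, summed to 7098, 9740 and 9082 CPM in KO and to 9002, 5907 and 7896 CPM in WT. KO replicate 2 had the highest astrocyte sum, led by S100b, which oligodendrocytes also use, while Gja1 was highest in KO replicate 1. The neuron list, Map2, Scg2 and Syt1, summed to 222, 302 and 293 CPM in KO and to 227, 315 and 516 CPM in WT. The endothelial list had 3 genes, of which Bsg averaged 3517 ± 584 CPM in KO and 3650.0 ± 756 CPM in WT. Selp and Sele, which activated endothelium displays, had 2.69 and 1.11 CPM in KO replicate 2 and at most 0.38 CPM elsewhere. The oligodendrocyte progenitor list, led by Fyn, Pcdh15 and Neu4, summed to 1617, 1756 and 1660 CPM in KO and to 1433, 1550 and 1539 CPM in WT. By gene, KO replicate 2 was highest for 3 of 4 in the progenitor list and 2 of 3 in the endothelial list. It was highest for 2 of 5 astrocyte, 1 of 7 mural and fibroblast, and 0 of 3 neuron genes, against 18.0% of all genes with a count. No gene of these lists passed the edgeR test, and their part in the counts of the 9 genes was not tested.

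The genes whose level ran most closely with the summed level of the 9 genes over the 6 replicates, among 1332 genes, were Map2k2 (Pearson r of log2 CPM 0.983), Susd4 (0.981), Apc2 (0.971), Il1r2 (0.964) and Soga3 (0.951). These r values describe 6 points, of which KO replicate 2 is farthest from the rest. Susd4 stood at 16.5, 38.3 and 15.7 CPM in the KO replicates and at 9.12, 7.20 and 15.3 CPM in the WT replicates. Map2k2 varied far less, from 2272 to 2465 CPM in KO and from 2155 to 2278 CPM in WT.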

How the data were processed

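RNA from GFP-positive, propidium iodide-negative cells was read as 50-base single ends from libraries made with about 5.2 ng of total RNA, per the labels' protocols. The authors deposited raw counts of reads for each gene in each library. The submitters' processing notes name HISAT2, featureCounts, fastp, FastQC, CASAVA 1.8.2, SAMtools 1.4.1 and DESeq2 1.38.1, and the build mm10. Annotation, strand setting and the handling of multiply matching reads: not given in the sources used here.

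Of the table's lines, 2398 were complete, and 1 that broke off was dropped. Entrez identifiers were matched to symbols in the RefSeq gene table for GRCm38 (2226 matched, 172 with 0.552% of the counts did not). Counts ranged from 1838676 to 3060812 per library. Since only part of the genome is in the table, these totals are less than the depth.

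The 2 libraries of a replicate were summed. The comparison of KO with WT used edgeR 4.0.16 (R 4.3.3) with TMM factors from 0.951 to 1.05, filterByExpr and a robust quasi-likelihood fit, at an adjusted p of 0.05. Each SE was obtained as log2 fold change over the root of F. The fit was tested on simulated counts. Because none of the 9 genes passed filterByExpr, their fold changes come from the fit of all genes with a count, and where WT held 0 counts only a bound against a floor of 3 counts over the group is given. The alternatives were DESeq2 1.42.0, limma-voom (limma 3.58.1), other scalings and filters, a replicate block, single libraries, 12 separate libraries and leaving out each replicate. P-values measure the spread between replicates whose origin from separate animals is not stated. Intervals and floors cover counting error only, and the bounds leave out counting error in KO.

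The 9 genes and all gene lists were chosen with earlier results of these data known. In each list the 3 genes of highest mean CPM are named, except some genes that are not reported here, and the genes named for likeness are the 5 with the highest Pearson correlation among tested genes with a mean of at least 5 CPM, on log2(CPM + 1). Exon lengths and transcript windows come from GENCODE M21, and promoter windows from RefSeq on GRCm38.p6, where Icos and Cd28 have none in the table used.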

Additional observations from a re-analysis of the deposited data

How the results depend on the processing

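None of the 9 genes was called in a fit that held it, which were the fits with no filter or with at least 10 counts in all and some of the fits without a replicate, so the other settings say nothing on their stability. The count of called genes stayed at 0 under other scalings and filters, limma-voom, single libraries, each fit without a replicate and the replicate block, and moved to 7 with DESeq2, with or without the filter, and to 49 with edgeR on 12 libraries taken as separate samples, which by construction counts each replicate as 2 samples. For the DESeq2 counts the cause was not tested. Among the 27 other T, NK and SLAM genes 2 were called in each of these fits, among them Cd244a with DESeq2 and Srgn with 12 libraries. The number of these 27 with every KO replicate above every WT replicate was 5 under each scaling, and between 5 and 10 when a replicate was left out, 10 without KO replicate 3 and 8 without WT replicate 1, where the share over all 1484 genes, added after the data were seen, lay between 7.21% and 11.0%. Same-numbered replicates had correlations of their deviations of -0.00, -0.30 and 0.14, so the numbers were not taken to pair the samples, and the replicate block called 0 genes.

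The KO minus WT difference of the summed CPM, 12.1, was 12.2 and 12.3 under other scalings, 10.3 and 14.0 with the first or second library alone, and between 4.64 (without KO replicate 2) and 16.6 when a replicate was left out. In fits with no filter, added after the data were seen, the sign turned without KO replicate 2 for Prf1 (log2 fold change -1.46), without WT replicate 1 for Cd247 (-0.11), and without WT replicate 2 for Cd247 (-0.32) and Prf1 (-0.18). Cd28 ranged from 0.96 to 3.33 and Stat4 from 1.18 to 2.54 in these fits. Where leaving out a replicate left a genotype with 0 counts no fold is given, as for Cd247 and Xcl1 without KO replicate 2, Cd28 without WT replicate 1 and Xcl1 without WT replicate 2. The bound for Icos ranged from 10.8 to 21.5 that for Ctla4 from 10.8 to 22.0, that for Zap70 from 3.18 to 7.49 and that for Themis from 0.848 to 2.00. Leaving out a WT replicate lowers a bound by construction. With at least 50 counts in the pair, 1 replicate (KO replicate 2) had a chi-square p under 0.05 between its libraries, and with at least 5 counts 0 did. With other scalings, voom, DESeq2 after the filter, the block, single libraries or 12 libraries, the members could not be fitted because none passed the filter. At these depths counting error alone leaves wide intervals of the ratios, such as 3.32 to 27.1 for Cd28 and 0.856 to 18.8 for Xcl1. The intervals of Cd28 and Stat4 (1.58 to 7.49) lay above 1, and those of Cd247, Prf1 and Xcl1 took in 1. None of them covers the spread between replicates.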
